A study of Mus musculus with 5 samples.

Results

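The D-type and E-type cyclins, their kinases and the E2F factors that they release carry a cell from G1 into DNA replication. The members described here are 10 genes of that module: the D-type cyclins Ccnd1, Ccnd2 and Ccnd3, their kinases Cdk4 and Cdk6, the E-type cyclins Ccne1 and Ccne2 with their kinase Cdk2, and the transcription factors E2f1 and E2f2. They were taken by symbol from the 27526 genes of the authors' normalized table, and all 10 were found there and passed the filter on low counts. RNA was sequenced from mouse AML1-ETO9a leukaemia cells labelled as Kit-positive stem cells; AML1-ETO9a is a spliced variant of the fusion of RUNX1 and RUNX1T1 found in human acute myeloid leukaemia. Wild-type libraries (2, replicates 1 and 3) carried the genotype Plcg1 +/+, and deleted libraries (3, replicates 2, 4 and 6) carried Plcg1 -/- from a conditional deletion; by their labels both groups come from the AML1-ETO9a model. Plcg1 encodes phospholipase C-γ1, which makes the second messengers diacylglycerol and inositol trisphosphate. The libraries are called wt1, wt3, del2, del4 and del6. The sources used here give neither the age of the mice, nor what drives the deletion, nor whether each library is from a mouse of its own. The p-values therefore rest on the spread of these 5 samples alone, and that spread may be technical. The series title concerns self-renewal of these cells. The comparison here asks how the G1 module differs between the labelled genotypes.

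In G1, growth factor signals raise D-type cyclins, which bind CDK4 or CDK6 and begin to phosphorylate the retinoblastoma protein. That releases E2F1, E2F2 and E2F3, which switch on cyclin E and the genes of DNA replication, and cyclin E with CDK2 completes the phosphorylation. Proteins of the INK4 family block CDK4 and CDK6, and those of the CIP/KIP family act mainly on CDK2. In blood cells CDK6 and cyclin D3 are prominent, and leukaemic progenitors usually keep this pathway active.

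Libraries held 37306507 to 57133771 gene counts. The targeted gene did not follow the labels: Plcg1 was at 22.1 and 33.99 CPM (the share of a library's reads, on a common scale after TMM normalization) in wt1 and wt3 and at 52.998, 26.9 and 37.1 CPM in del2, del4 and del6. The fitted log2 fold change came to 0.48 ± 0.37 (SE; edgeR adjusted p = 0.543). Gene totals may not check a deletion of part of the gene, and whether only a part is deleted was not tested. Library del6 stood apart from the other 4 libraries. Summed over 8 macrophage and monocyte markers it reached 118603 CPM, against 15240 to 31863 CPM elsewhere, and 6 of the 8 were highest there. Summed over 7 neutrophil granule genes it held 19.7 CPM, against 7309 to 14004 CPM elsewhere. Kit was at 26.8 and 32.1 CPM in wt1 and wt3, at 672 and 304 CPM in del2 and del4, and at 3.08 CPM in del6. Mast cell markers (8 genes) summed to 10358 and 4698 CPM in del2 and del4 and to 32.3 to 82.2 CPM in the other 3 libraries. Runx1t1, the source of the ETO part, had 5 and 13 counts in wt1 and wt3 and 598 to 6035 in the deleted ones. Xist had 5375 counts in del6 and at most 3 elsewhere, and Ddx3y had 12 counts in del6 and 2811 to 4893 elsewhere. Whether the libraries differ in sex was not tested. Hoxa9, a homeobox gene of stem cells and many leukaemias, was at 145 and 128 CPM in wt1 and wt3 and at 0.841, 1.66 and 0.0678 CPM in del2, del4 and del6. Its partner Meis1 was at 79.1 and 84.5 CPM against 8.65, 6.80 and 0.317 CPM. Whether all 5 libraries come from 1 leukaemia model, as labelled, was not tested. T cell and B cell lists stayed at 114 CPM or less in sum, with Cd3e and Cd3g at 0 counts in all 5 libraries. Member values and list medians are therefore given with and without del6, group names refer to the labels, and the part of these differences in the results was not tested.

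Most of the G1 module had lower values in the libraries labelled deleted, with a D-type cyclin pattern that went both ways. For 8 of the 10 genes all deleted libraries had lower values than either wild-type library, as was found for 23.7% of all 16120 genes tested. In 1 member, Ccnd1, every deleted library lay above both, against 22.4% of all genes, and Ccnd2 alone had groups that overlapped. The members' median log2 fold change (deleted against wild-type) was -0.88, against 0.01 over all genes tested. It was -0.43 without del6 (all genes -0.01), -0.41 in lane 4 and -0.49 with limma-voom. edgeR's quasi-likelihood test nevertheless called none of the 10 at an adjusted p under 0.05 across all 5 libraries, as it called 0% of all genes in either direction. At an unadjusted p under 0.05 there were 3 lower members, E2f2, Cdk6 and E2f1 (5.42% of all genes), and 0 higher (9.44%). DESeq2 called 2 lower, E2f2 and E2f1 (3.05% of all genes), and 4 were lower by limma-voom with weights on samples, E2f2, Cdk6, Ccnd3 and E2f1 (5.87%); neither called a member higher (5.75% and 7.63%). Without del6 edgeR called 3 lower, E2f2, Ccnd3 and Cdk6 (5.07% of all genes), and 1 higher, Ccnd2 (7.89%). At an unadjusted p under 0.05 that fit had 6 lower (12.6%) and 1 higher (16%). In lane 4 and with no filter on low counts edgeR called E2f2 alone lower (0.779% and 0.38% of all genes) and 0 members higher (1.26% and 0.539%). Without del6, 8 members still lay below both wild-type libraries (29%) and 2 above (29.6%). In bulk RNA, fewer cells of a type and less RNA per cell cannot be told apart.

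**Figure D1:**
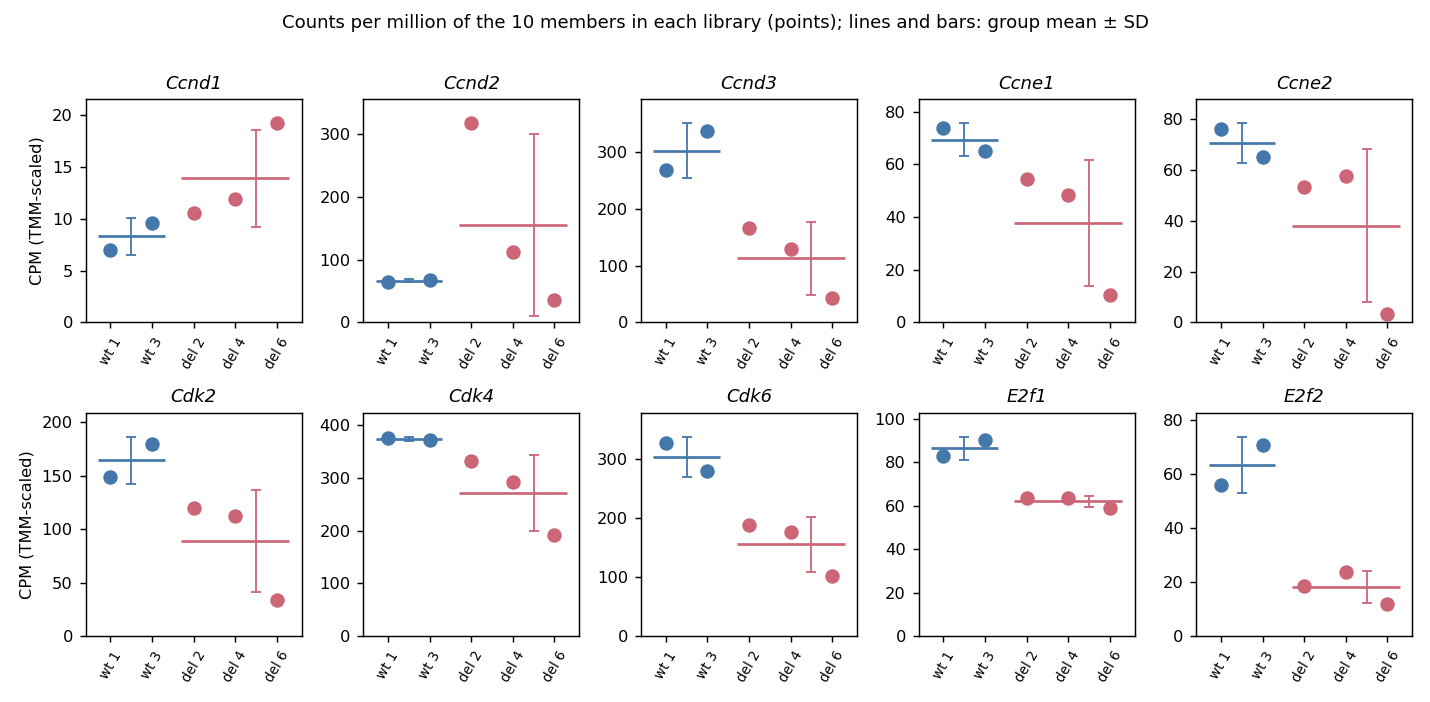
CPM (TMM-scaled, linear axes from 0) of each of the 10 members in wild-type (wt, blue) and deleted (del, red) libraries; points are libraries, horizontal lines group means and bars the SD. In 8 panels every red point lies below both blue points, in the Ccnd1 panel every red point lies above them, and in the Ccnd2 panel the groups overlap.

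Cyclin D3 was the leading D-type cyclin in wild-type cells and stood lower in every deleted library. Ccnd3 (chromosome 17, 47505051 to 47599691, GRCm38) was at 269 and 337 CPM in wt1 and wt3, and at 166, 130 and 42.1 CPM in del2, del4 and del6. The groups did not overlap, and del6 was the lowest library. Group means were 303 ± 47.98 CPM in wild-type (SD, n = 2) and 113 ± 63.96 CPM (SD, n = 3). The fitted log2 fold change came to -1.42 ± 0.57 (SE; edgeR adjusted p = 0.342). Without del6 it fell by 1.02 ± 0.18 on the log2 scale (edgeR adjusted p = 0.0171), and in sequencing lane 4, the only lane with both labels (wt3, del2 and del4), the value was -1.17 ± 0.21 (edgeR adjusted p = 0.0795).

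Cyclin D2 had no common direction across the deleted libraries. Ccnd2 (chromosome 6, 127125162 to 127152193) was at 64.9 and 68.3 CPM in wt1 and wt3, at 318 and 113 CPM in del2 and del4, and at 36.4 CPM in del6. Libraries del2 and del4 were the highest libraries and del6 the lowest, so the SD of the deleted group (145 CPM around a mean of 156 CPM, n = 3) nearly equalled its mean. The log2 fold change of 1.23 ± 0.89 (SE; edgeR adjusted p = 0.520) became 0.17 ± 0.57 without del2. Without del6 Ccnd2 rose by 1.70 ± 0.43 (edgeR adjusted p = 0.0491), its only call among the 12 alternatives. In lane 4 the value was 1.67 ± 0.67. The same order of libraries, del2 above del4 above wild-type with del6 lowest, was seen in Kit (672, 304, 26.8 to 32.1 and 3.08 CPM). The sum of 6 stem and progenitor markers, Kit among them, had that order too, at 299 and 319 CPM in wt1 and wt3, 1123 in del2, 562 in del4 and 7.03 in del6, although 3 of the 6, Hoxa9, Meis1 and Flt3, were highest in a wild-type library. Mast cell markers as a sum were also highest in del2 and next in del4. The part of these cells in the Ccnd2 values was not tested.

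Cyclin D1, the member with the lowest wild-type level per length, had its highest value in del6. Ccnd1 (chromosome 7, 144929931 to 144939925) was at 7.01 and 9.58 CPM in wt1 and wt3 and at 10.6, 11.9 and 19.2 CPM in del2, del4 and del6. The groups did not overlap, though wt3 and del2 lay close together. The fitted log2 fold change came to 0.74 ± 0.37 (SE; edgeR adjusted p = 0.398), 0.45 ± 0.24 without del6 and 0.24 ± 0.25 in lane 4, and none of the 12 alternatives called it. Oraov1 overlaps Ccnd1 on the opposite strand over 1100 of its 4709 merged exon bases (23.4%), and its counts, 634 and 692 in wild-type and 1078, 991 and 1433 in del2, del4 and del6, were larger than those of Ccnd1 (291 to 849). The kit does not mark strand, so reads of both genes cannot be told apart in the shared bases.

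Per kilobase of merged exons, the makeup of the D-type cyclins differed between the labelled groups. Ccnd3 made up 78.5% and 80.5% of the summed level per length in wt1 and wt3, and 34.5%, 50.5% and 37.6% in del2, del4 and del6. Ccnd2 made up 17.7% and 15.2% in wild-type and 61.4%, 40.9% and 30.4% in the deleted libraries. Ccnd1 took 3.82% to 8.60% in 4 libraries and 32.0% in del6. Every deleted library thus had a smaller Ccnd3 share and a larger Ccnd2 share than both wild-type libraries, del6 included, even though Ccnd2 itself was lowest there. The summed level was 39.0 and 47.7 CPM per kilobase in wild-type, 54.98 in del2, 29.4 in del4 and 12.7 in del6, so the groups overlapped in sum. With the longest transcript as length, Ccnd3 shares were 85.2% and 86.7% in wild-type and 44.9% to 61.6% in the deleted libraries.

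**Figure D2:**
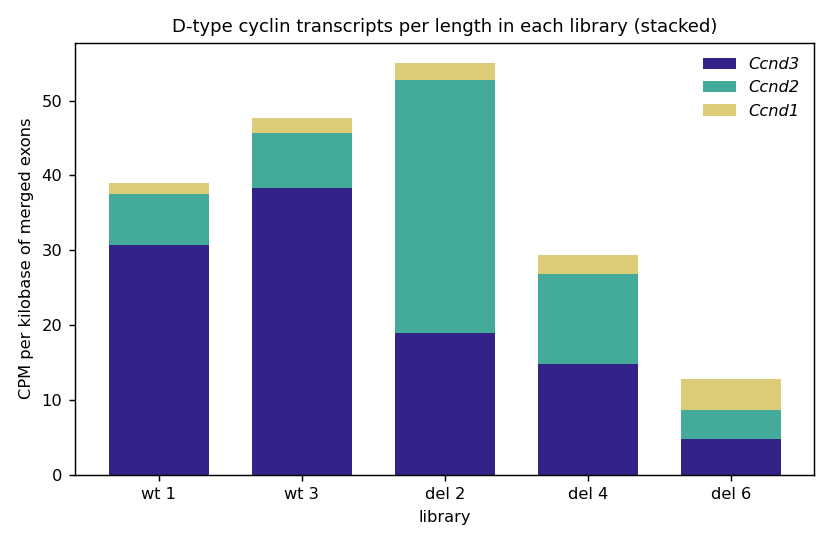
Stacked bars give the level of Ccnd3, Ccnd2 and Ccnd1 in CPM per kilobase of merged exons in each wild-type (wt) and deleted (del) library. Ccnd3 fills 78.5% and 80.5% of the wild-type bars and 34.5% to 50.5% of the deleted bars, and the bar of del6 is the lowest at 12.7 CPM per kilobase.

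Of the kinases that cyclin D activates, Cdk6 had the larger difference and Cdk4 the smaller. Cdk6 (chromosome 5, 3341485 to 3531008), which also acts in haematopoietic stem cells apart from its part in the cell cycle, was at 327 and 279 CPM in wt1 and wt3 and at 188, 177 and 102 CPM in del2, del4 and del6. The groups did not overlap, and del2 and del4 lay closer to each other than wt1 and wt3. The fitted log2 fold change came to -0.96 ± 0.31 (SE; edgeR adjusted p = 0.286). Without del6 Cdk6 fell by 0.72 ± 0.14 on the log2 scale (edgeR adjusted p = 0.0233), and in lane 4 the value was -0.61 ± 0.16 (edgeR adjusted p = 0.148).

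Cdk4 (chromosome 10, 127063534 to 127067920) had the highest level per length of the members in each library and was at 377 and 372 CPM in wt1 and wt3 and at 332, 293 and 192 CPM in del2, del4 and del6. The wild-type libraries were nearly equal and all deleted libraries were lower, del6 at 51.2% of the wild-type mean. On the log2 scale the fitted difference was -0.46 ± 0.29 (SE; edgeR adjusted p = 0.472), -0.25 ± 0.14 without del6 and -0.24 ± 0.18 in lane 4, and none of the 12 alternatives called it. Tspan31, on the opposite strand, shares 641 bases (19.7%) of its merged exons. Cdk4 made up 83.2% and 85.2% of the summed level of both kinases per length in wild-type and 87.7% to 89.0% in the deleted libraries.

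The sequence before the Cdk4 start is shown because Cdk4 kept the largest share of its wild-type mean among the 3 kinases in del6 and because 1 short word recurs in it. Cdk4 has been described as a target of MYC, which binds the E-box CACGTG. Promoter windows from RefSeq (GRCm38.p6) were present for 7 of the 10 members, with 9 windows; Ccnd1, Ccnd2 and Ccne2 had none. In the 250 bases before each start, the palindrome CACGTG (the same on both strands) and 4 E2F consensus words, TTTCCCGC, TTTCGCGC, TTTGCCGC and TTTGGCGC on both strands, were sought; a match is a description of letters only. The Cdk4 window held CACGTG 4 times, at 11, 98, 118 and 172 bases before the start, and Cdk6 held it 1 time. Of all 32851 windows 6.02% held it and 7 windows (0.0213%) held it at least 4 times. The 8-letter E2F words occurred in 1 member window, that of Cdk2, and in 1.86% of all windows. No member window held both kinds of word, and the words were chosen after the windows had been read. The cut of 4 is the count seen in the Cdk4 window, so its share of all windows is no test. Binding of MYC was not tested. Capitals mark CACGTG in the Cdk4 sequence (chr10:127063285-127063533, plus strand, up to the first annotated exon base). They also mark the E2F word, read on the opposite strand as TTTCCCGC, in the 30 bases around it before Cdk2 (chr10:128705173-128705202, minus strand). The Cdk2 word lies outside the longest exon-free stretch of its window (chr10:128705052-128705179), and 105 of the 250 bases searched there lie in annotated exons. The first 30 bases from this Cdk2 start were in no GENCODE transcript of Cdk2.
Cdk4: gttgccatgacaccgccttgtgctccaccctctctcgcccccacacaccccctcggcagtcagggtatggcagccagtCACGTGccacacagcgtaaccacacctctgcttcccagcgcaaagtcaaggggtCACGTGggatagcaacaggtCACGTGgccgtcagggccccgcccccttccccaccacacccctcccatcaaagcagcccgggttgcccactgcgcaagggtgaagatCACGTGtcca
Cdk2: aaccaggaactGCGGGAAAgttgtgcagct

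The E-type cyclins and Cdk2 shared a pattern of moderately lower values in del2 and del4 and far lower values in del6. Cdk2 (chromosome 10, 128697939 to 128705031), whose kinase activity drives entry into S phase, was at 149 and 180 CPM in wt1 and wt3 and at 119.9, 112 and 34.2 CPM in del2, del4 and del6. The fitted log2 fold change came to -0.89 ± 0.55 (SE; edgeR adjusted p = 0.470), -0.49 ± 0.15 without del6 (edgeR adjusted p = 0.0772) and -0.62 ± 0.15 in lane 4 (0.134). Ccne1 (chromosome 7, 38097984 to 38107534) was at 73.7 and 64.9 CPM in wt1 and wt3 and at 54.4, 48.2 and 10.3 CPM in the deleted libraries. Ccne2 (chromosome 4, 11191351 to 11204779) was at 76.0 and 64.9 CPM in wt1 and wt3 and at 53.2, 57.6 and 3.26 CPM in the deleted libraries. For these 3 genes the groups did not overlap, and del6 lay far below del2 and del4. That library also had the macrophage marker sum of 118603 CPM and the neutrophil sum of 19.7 CPM; their part in these values was not tested. The E-type cyclins had log2 fold changes of -0.88 ± 0.68 for Ccne1 and -0.89 ± 1.06 for Ccne2 (SE; edgeR adjusted p = 0.542 and 0.674), which were -0.42 ± 0.14 and -0.34 ± 0.14 without del6 (0.112 and 0.186) and -0.33 ± 0.17 and -0.22 ± 0.16 in lane 4.

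Within the E-type pair, the 4 libraries other than del6 had a like makeup. Ccne1 took 52.4% to 57.3% of the pair's summed level per length in those 4 and 80.5% in del6, where Ccne2 stood at 4.62% and Ccne1 at 14.8% of the wild-type mean. Ints8, on the opposite strand, shares 609 bases (17.4%) of the Ccne2 exons, and its counts were 2021 to 5597. No annotated gene overlaps Ccne1, E2f1 or E2f2.

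E2f2 was the member with the clearest difference, and the only one called in 5 of the 12 alternatives. E2f2 (chromosome 4, 136172394 to 136196057), an activating E2F, was at 56.0 and 70.7 CPM in wt1 and wt3 and at 18.6, 23.9 and 12.03 CPM in del2, del4 and del6. Every deleted library stood at 19.0% to 37.6% of the wild-type mean, well outside the spread of both groups. Group means were 63.4 ± 10.4 CPM in wild-type (SD, n = 2) and 18.2 ± 5.93 CPM (SD, n = 3). On the log2 scale the fitted difference was -1.80 ± 0.33 (SE; edgeR adjusted p = 0.157, unadjusted p = 0.00250). E2f2 fell by 1.57 ± 0.20 on the log2 scale without del6 (edgeR adjusted p = 0.00475) and by 1.73 ± 0.21 in lane 4 (edgeR adjusted p = 0.0452, a fit that takes wt3 to vary as del2 and del4 do; 0.779% of all genes were called lower there). DESeq2 and limma-voom called it lower across all 5 libraries (adjusted p = 0.000339 and 0.00888). Leaving out single libraries kept the value between -2.04 and -1.57. Of the fits with a single library left out, only that without del6 called E2f2. Those without del2 and without del4 had edgeR adjusted p = 0.227 and 0.343. Those without wt1 and without wt3, which leave a single wild-type library, had values of -1.96 and -1.62.

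Its upstream sequence is printed as that of the member with the smallest p. It covers the 250 bases before the upstream RefSeq start (chr4:136172024-136172273, plus strand, no annotated exon). E2f2 has another RefSeq window (chr4:136180532-136180831), and at neither start were the first 30 bases in a GENCODE transcript of E2f2. None of the 5 search words occurred in the printed sequence, so it has no capitals.
E2f2: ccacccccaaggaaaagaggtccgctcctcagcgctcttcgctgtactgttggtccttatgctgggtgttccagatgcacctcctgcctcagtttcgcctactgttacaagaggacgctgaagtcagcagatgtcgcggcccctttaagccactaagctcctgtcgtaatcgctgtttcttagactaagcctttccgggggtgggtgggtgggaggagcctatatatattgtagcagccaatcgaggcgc

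E2f1 had a smaller difference, and its deleted libraries had the smallest SD among the members relative to their mean. E2f1 (chromosome 2, 154559407 to 154569892), the activating E2F that also drives apoptosis genes, was at 82.7 and 90.0 CPM in wt1 and wt3 and at 63.5, 63.4 and 58.97 CPM in del2, del4 and del6. All 3 deleted libraries lay close together, del6 included, below both wild-type libraries. Group means were 86.4 ± 5.16 CPM in wild-type (SD, n = 2) and 61.96 ± 2.59 CPM (SD, n = 3). On the log2 scale the fitted difference was -0.48 ± 0.16 (SE; edgeR adjusted p = 0.286), -0.43 ± 0.13 without del6 (0.0762) and -0.49 ± 0.15 in lane 4 (0.177). DESeq2 (adjusted p = 0.0327) and limma-voom (adjusted p = 0.0401) called it lower across all 5 libraries. In del6 E2f1 kept 68.3% of its wild-type mean, the largest share of the 9 members that were lower there. E2f1 made up 69.6% and 66.3% of the pair's summed level per length in wt1 and wt3 and 84.1%, 80.5% and 88.4% in del2, del4 and del6.

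**Figure D3:**
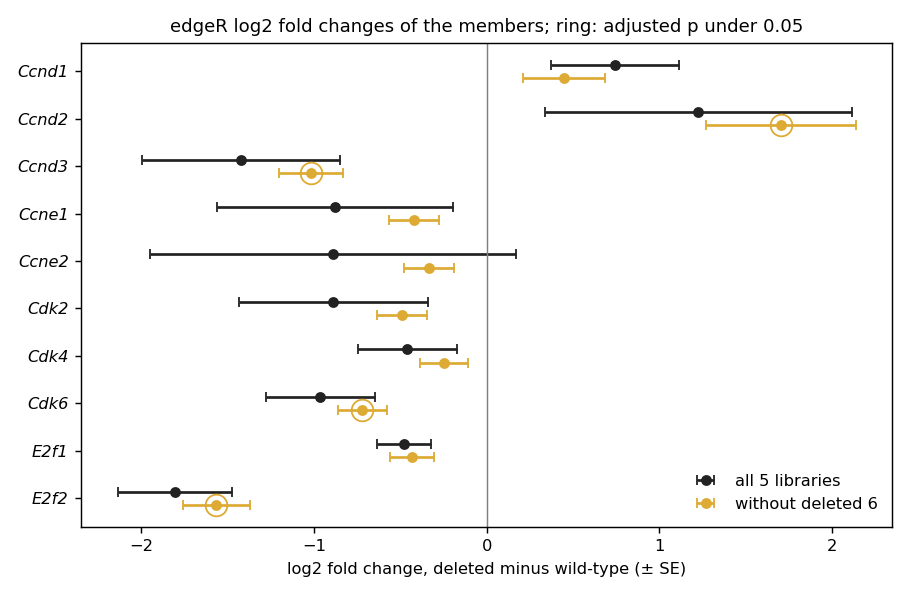
Log2 fold changes of the 10 members, deleted minus wild-type, with SE from edgeR's quasi-likelihood fit of all 5 libraries (black) and of the 4 libraries without del6 (yellow); rings mark an adjusted p under 0.05. No black point has a ring, and the yellow points of Ccnd2, Ccnd3, Cdk6 and E2f2 have one.

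Per kilobase of merged exons, the order of the members in wild-type was led by Cdk4 at 115 ± 1.05 CPM per kilobase (SD, n = 2), followed by Ccnd3 at 34.5 ± 5.47. Next came E2f1 at 27.4 ± 1.64, Cdk2 at 26.4 ± 3.50 and Ccne1 at 26.0 ± 2.34, whose libraries overlapped, so they do not differ beyond their spread. Cdk6 at 21.7 ± 2.39 and Ccne2 at 20.2 ± 2.25 overlapped likewise. E2f2 at 12.98 ± 2.13, Ccnd2 at 7.08 ± 0.259 and Ccnd1 at 1.76 ± 0.386 closed the order with ranges that do not overlap. In the deleted libraries Cdk4 was again first, at 83.7 ± 22.2 CPM per kilobase (SD, n = 3), and Ccnd1 last, at 2.95 ± 0.986. E2f1 was at 19.6 ± 0.821 and 6 other members had means between 10.9 and 16.5 with overlapping libraries. E2f2, at 3.72 ± 1.21, overlapped with Ccnd1. With the longest transcript as length, Cdk2, Ccne1 and E2f1 took ranks 3, 4 and 5 in wild-type in place of 4, 5 and 3.

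The transcripts that copied each member's profile most closely were found by the root mean square distance between centred log2 CPM over the 5 libraries, among 9074 genes whose mean log2 CPM reached 3. It is a description of 5 libraries that share the outlying del6. Nearest to Cdk4 were Psme3, a proteasome activator subunit, Oard1 and Prkdc, the DNA-dependent protein kinase, at 0.0117, 0.0166 and 0.025 log2 units. E2f1 lay nearest to Apba3, Vps36 and Akap1 (0.0293 to 0.0363), and Cdk6 to Rfc3, a clamp loader subunit of replication, Ppp2cb and Tada2a (0.0438 to 0.0667). Cdk2 had Pola2, a subunit of the primase complex, Sass6, a centriole protein, and Grk6 nearest (0.0429 to 0.0628). Ccne1 had Rcc1, Impdh2 and Ube2t (0.0471 to 0.0657), and Ccne2 had Mbnl3, the mitotic cyclin Ccnb1 and Prr11 (0.103 to 0.108). Ccnd1 had Dock10, Pnpla8 and Mocos (0.0152 to 0.0459), and Ccnd3 had Nmral1, H2afy and 4933404O12Rik (0.0714 to 0.102). The members without close companions were E2f2, with Tbkbp1, Acpp and Gapt at 0.156 to 0.173, and Ccnd2, with Tmem9, Map7 and Osm at 0.269 to 0.285. Among the members themselves the closest pair was Cdk4 and E2f1 (0.229) and the most distant was Ccnd1 and Ccne2 (2.14).

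All listed genes that E2F factors switch on for S phase were below both wild-type libraries in every deleted library. This held for 28 of 28 genes, against 23.7% of all genes tested. The list, like the members and the other lists, was chosen with earlier results of these data known, so that share is no test. Its median log2 fold change was -1.11, or -0.59 without del6 and -0.64 in lane 4. edgeR called 0 of the 28 across all 5 libraries, with 1 lower at an unadjusted p under 0.05 (5.42% of all genes). That gene was Pcna, the sliding clamp of replication (-0.68 ± 0.23, SE, edgeR adjusted p = 0.303, and -0.52 ± 0.15 without del6, adjusted p = 0.0739). Cdt1, which licenses origins, had the next smallest p, at -1.03 ± 0.52 (edgeR adjusted p = 0.404; without del6 -0.64 ± 0.12, 0.0220). DESeq2 called 0 lower (3.05% of all genes) and limma-voom 1 (5.87%). Without del6 edgeR called 14 lower and 0 higher, where 5.07% and 7.89% of all genes were called, led by Tk1, thymidine kinase (-1.14 ± 0.13, adjusted p = 0.00410), and Cdc45, a helicase component (-0.85 ± 0.12, adjusted p = 0.00817). Tk1 was at 67.3 and 70.1 CPM in wt1 and wt3 and at 31.8, 30.1 and 3.84 CPM in del2, del4 and del6. Relative to the wild-type mean, the list's median in log2 CPM was -0.51 in del2, -0.66 in del4 and -4.12 in del6. On that scale E2f1 stood at -0.44, -0.44 and -0.55, and E2f2 at -1.76, -1.40 and -2.38. Macrophage markers were highest in sum and neutrophil genes lowest in that same del6, and their part in the list's values was not tested.

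The list medians of later cyclins and mitotic genes had the same order among the deleted libraries, with del2 above del4 and del6 lowest. Of 16 later cyclins, kinases and CDK regulators 15 were tested, all but Ccna1, and 12 lay below both wild-type libraries in every deleted library and 0 above, where 23.7% and 22.4% of all genes did. Their median log2 fold change was -0.93, or -0.40 without del6 and -0.26 in lane 4. edgeR called 0 of them across all 5 libraries, with 1 lower at an unadjusted p under 0.05 (5.42% of all genes). That gene was Wee1, the kinase that restrains CDK1 (-0.88 ± 0.25, SE, edgeR adjusted p = 0.260, and -0.72 ± 0.17 without del6, adjusted p = 0.0436). Ccnh, the cyclin of the CDK-activating kinase, came next, at -0.54 ± 0.27 (edgeR adjusted p = 0.398; without del6 -0.34 ± 0.14, 0.184). DESeq2 called 0 and limma-voom 1 lower, where 3.05% and 5.87% of all genes were called lower. Without del6 edgeR called 3 lower (5.07% of all genes), Wee1 and with smaller p Ccnb2, a mitotic cyclin (-0.76 ± 0.13, adjusted p = 0.0140), and Pkmyt1, another inhibitory kinase of CDK1 (-0.61 ± 0.14, adjusted p = 0.0393). All 10 mitotic markers lay below both wild-type libraries in every deleted library (23.7% of all genes), with a median log2 fold change of -1.04, or -0.50 without del6, and edgeR called 0 of them, none at an unadjusted p under 0.05; DESeq2 and limma-voom called 0. Mki67 was at 229 and 272 CPM in wt1 and wt3, 171 and 165 CPM in del2 and del4 and 7.76 CPM in del6, and Bub1b had the smallest p (-1.01 ± 0.79, edgeR adjusted p = 0.542; without del6 -0.52 ± 0.14, 0.0633). Without del6 edgeR called 2 lower (5.07% of all genes), Aurkb (-0.63 ± 0.13, adjusted p = 0.0241) and Mki67 (-0.56 ± 0.14, adjusted p = 0.0488). The medians of the later cyclin and mitotic lists in del6 were -3.85 and -5.37 from the wild-type mean in log2 CPM, against -1.91 for the members.

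The inhibitors upstream of these kinases went both ways, INK4 genes included. Of 10 CDK inhibitors and Rb family genes, 4 lay above and 3 below both wild-type libraries in every deleted library, against 22.4% and 23.7% of all genes. The median log2 fold change was 0.17, or 0.11 without del6, -0.08 with limma-voom and -0.14 in lane 4. None passed edgeR's adjusted threshold in the fit of every library. At an unadjusted p under 0.05 there were 2 higher and 2 lower (9.44% and 5.42% of all genes). DESeq2 gave 2 higher and 1 lower call (5.75% and 3.05% of all genes), and limma-voom gave 2 and 2 (7.63% and 5.87%). Without del6 edgeR gave 2 and 2 (7.89% and 5.07%). Cdkn2c, the INK4 protein p18, was at 38.0 and 50.6 CPM in wt1 and wt3 and at 9.78, 8.87 and 8.32 CPM in del2, del4 and del6 (-2.30 ± 0.22, SE; edgeR adjusted p = 0.103). Without del6 edgeR called it lower (-2.23 ± 0.20, adjusted p = 0.00179), together with Cdkn2d, another INK4 gene (-0.94 ± 0.14, adjusted p = 0.00867). Cdkn2b, the INK4 protein p15, was at 1.40 and 1.13 CPM in wt1 and wt3 and at 8.25, 4.34 and 18.3 CPM in the deleted libraries (3.02 ± 0.73, edgeR adjusted p = 0.215). It rose by 2.33 ± 0.40 without del6 (edgeR adjusted p = 0.0150), as did Cdkn1c, the CIP/KIP protein p57, by 1.57 ± 0.29 (edgeR adjusted p = 0.0189). In Rb1 itself the difference was 0.27 with all libraries and 0.27 without del6, with libraries from 66.1 to 91.3 CPM.

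The remaining E2F and DP genes and the genes of G1 cyclin turnover gave few calls. Of 8 other E2F and DP factors 1 lay above and 5 below both wild-type libraries in every deleted library, against 22.4% and 23.7% of all genes, with a median log2 fold change of -0.39, or -0.22 without del6; edgeR, DESeq2 and limma-voom called none across all 5 libraries; edgeR had none at an unadjusted p under 0.05 and called none without del6. E2f5, a repressor-type E2F, had the smallest p, at 6.77 and 4.70 CPM in wt1 and wt3 and 9.01, 11.2 and 25.1 CPM in del2, del4 and del6 (1.40 ± 0.55, SE; edgeR adjusted p = 0.336; without del6 0.83 ± 0.27, 0.102). E2f4, another, was next (-0.56 ± 0.33, edgeR adjusted p = 0.450; without del6 -0.31 ± 0.13, 0.193). Without del6 the smallest p belonged to E2f7, an atypical repressor (-0.57 ± 0.15, edgeR adjusted p = 0.0590), and Tfdp1, a partner of E2F proteins (-0.53 ± 0.17, adjusted p = 0.0967). E2f7 was at 33.1 and 36.6 CPM in wt1 and wt3, 24.1 and 22.4 CPM in del2 and del4 and 0.204 CPM in del6. Of 10 turnover genes 4 lay above and 3 below, against 22.4% and 23.7% of all genes. Their median log2 fold change was 0.10, or 0.19 without del6. In the fit of every library edgeR called none. At an unadjusted p under 0.05 there were 1 higher and 1 lower (9.44% and 5.42% of all genes). DESeq2 called 1 lower (3.05% of all genes), and limma-voom 1 higher (7.63%) and 1 lower (5.87%). Fbxo31, an F-box protein that targets cyclin D1, had -0.74 ± 0.20 (SE; edgeR adjusted p = 0.247) and fell by 0.63 ± 0.16 without del6 (edgeR adjusted p = 0.0473). Gsk3b, a kinase that marks D-type cyclins for export and degradation, had 0.66 ± 0.21 (edgeR adjusted p = 0.283; without del6 0.55 ± 0.14, 0.0555).

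**Figure D4:**
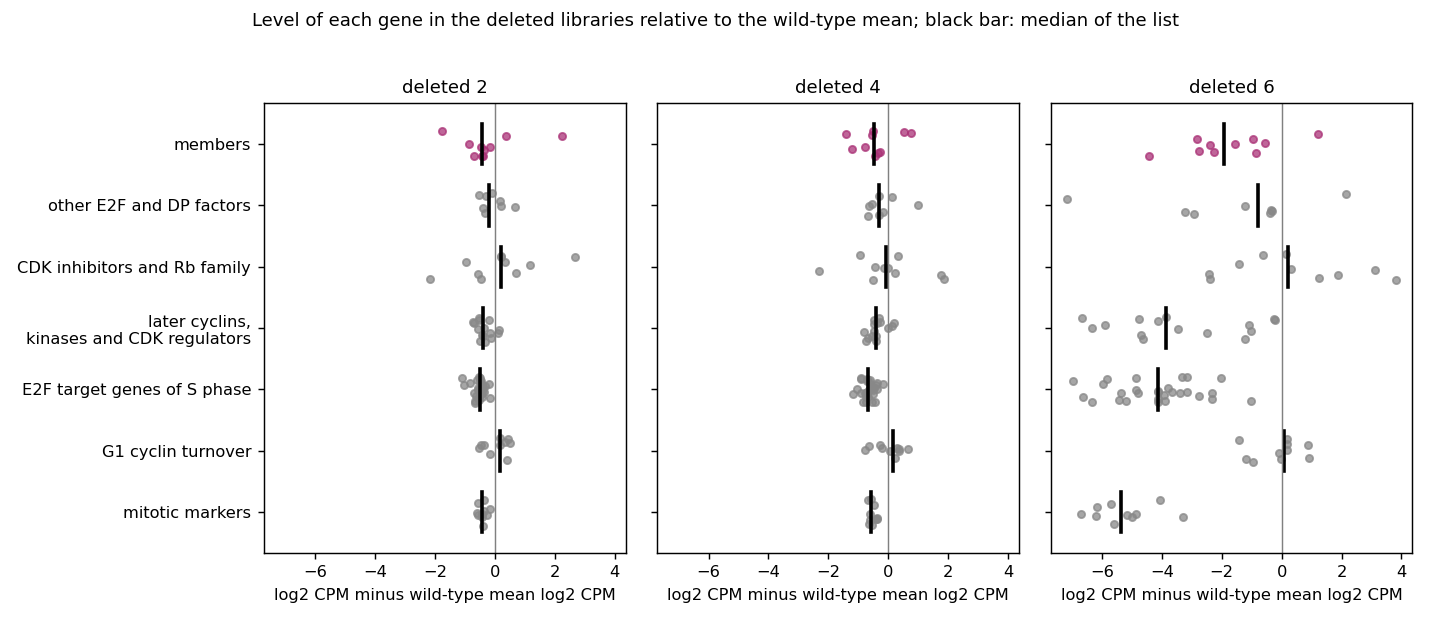
Each point is a gene, placed by its log2 CPM minus the wild-type mean log2 CPM in del2, del4 and del6 (panels, same axis), for the 10 members (purple) and 6 further lists of the pathway (grey); black bars are list medians. The S-phase list has medians of -0.51, -0.66 and -4.12 in the 3 panels, and the members -0.42, -0.48 and -1.91.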

How the data were processed

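RNA from 5 libraries was amplified with a low-input kit (SMART-Seq v4) and made into Nextera XT libraries per the labels' protocols, then sequenced as single-end reads of 50 bases; lanes are those in the names of the deposited data. The submitters' processing notes name bcl2fastq 1.8.4, STAR, DESeq2 1.12.4 and mm10, without roles; the annotation and how reads were counted are not given there. The authors deposited whole-number read counts for 46603 genes per library, plus 5 rows that name no gene (no feature 5.89% to 8.09% of reads, ambiguous 2.36% to 2.78%), which were left out. In the deposited normalized signal each count had been divided by a size factor of its library. The deposited log2 table was not used for any value.

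Counts of genes passing filterByExpr (16120) were scaled with TMM and tested with edgeR's quasi-likelihood test (edgeR 4.0.16, limma 3.58.1, DESeq2 1.42.0, R 4.3.3) on genotype, leaving 3 residual degrees of freedom, with Benjamini-Hochberg adjustment over all genes tested and calls at 0.05. Each SE was derived from the fold change and its F statistic. Exact permutation of the labels has a smallest p of 0.1 here and was not used. A count of 3 corresponds to 0.0526 to 0.0723 CPM, and every member had at least 144 counts; this covers counting error only. Counts of every pair of libraries differed beyond counting noise (chi-square per gene of at least 50.2).

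Loci and merged exon lengths are from GENCODE M21 (GRCm38, the build of mm10), where 46005 identifiers were found; promoters are from RefSeq (GRCm38.p6). Alternatives were other size factors, filters, DESeq2, limma-voom, single libraries left out and lane 4 alone. Members and lists were chosen with earlier results of these data known. Named list genes are the 2 with the smallest p per list in each fit, or up to 2 called each way; any other gene was chosen after its values were seen.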

Additional observations from a re-analysis of the deposited data

How the results depend on the processing

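All 120 member log2 fold changes under the 12 alternatives kept their direction; 108 stayed on the same side of the threshold and 12 passed it. No member was called higher in edgeR except 1 without deleted 6, so that leaving out single libraries gave 0 to 1. Members called lower numbered 1 with no filter on low counts (E2f2), 2 with DESeq2, 4 with limma-voom, 1 in lane 4, and 0 to 3 with single libraries left out. Members wholly above wild-type numbered 2 in lane 4 (40.3% of all genes) and 1 to 2 with single libraries left out (26.0% to 30.3%). Of the 82 genes of the other 6 lists, those called higher were 2 with DESeq2, 3 with limma-voom and 0 to 2 with single libraries left out. Those called lower were 1 with no filter, 2 with DESeq2, 5 with limma-voom, 1 in lane 4 and 0 to 22 with single libraries left out, the 22 without deleted 6. The cause was not tested. Of all genes tested, 0.38% were called lower with no filter, 3.05% with DESeq2, 5.87% with limma-voom and 5.07% without deleted 6. Called higher were 5.75% with DESeq2, 7.63% with limma-voom and 7.89% without deleted 6. Other size factors moved the median of all genes by -0.01 at most. The Plcg1 value ranged from 0.19 to 0.82 when 1 library was dropped. No paired analysis was made because the sample labels name no pairs. Lanes 3 and 5 hold 1 library each, so no within-lane value exists there.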
